A study of Mus musculus with 8 samples.

Results

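Ski, Skil, Tgif1, Tgif2 and Pmepa1 encode repressors of SMAD signalling, and SMAD4 binding around these 5 genes, of 21883 protein-coding genes on the assembled chromosomes, is described here from ChIP-seq peak lists of MS1 cells. A peak was taken when its summit lay inside or within 100 kb of the RefSeq gene body of a member (mm10), which gave 15 of the 4333 peaks called after BMP9/10 and 13 of the 1133 peaks called without it. A peak was assigned to a member when no other protein-coding gene body was nearer to its summit, which held for 9 stimulated and 9 unstimulated peaks.

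MS1 is an immortalised mouse endothelial line from pancreatic islets, so all values come from 1 line. The stimulated cells received recombinant BMP9/10 at 1 ng/mL and the unstimulated cells fresh medium, both after 24 h without serum. Each condition had 2 libraries of SMAD4 immunoprecipitate (IP) and 2 of input DNA, 8 libraries in all, and KD, left unexplained by the labels, stands in the titles of the IP libraries from stimulated cells. The authors merged the 2 libraries of a kind before calling peaks, so each peak has 1 value per condition, there is no replicate error, and no difference between conditions has a replicate check. The stimulated list rests on 41044888 IP tags and the unstimulated list on 52971023. Of 8 endothelial marker genes (Cdh5, Pecam1, Kdr, Tek, Erg, Tal1, Emcn and Eng), 8 were nearest to a stimulated peak within 100 kb and 5 to an unstimulated one. In the stimulated list, 2 of 3 neuron, 1 of 3 leukocyte and 0 of 3 hepatocyte markers had such a peak. In the unstimulated list the counts were 0, 1 and 0. Of all protein-coding genes, 12.2% were nearest to a stimulated and 3.79% to an unstimulated peak within 100 kb. Peaks near markers do not measure expression.

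BMP9 and BMP10 signal through endothelial receptors that phosphorylate SMADs, and SMAD4 joins these to bind DNA at short GTCT or GC-rich elements. Ski and its relative Skil (SnoN) are nuclear proteins that bind SMADs and recruit histone deacetylase corepressor complexes. Tgif1 and Tgif2 are homeodomain proteins that act as corepressors of SMAD complexes and of retinoid receptors. Pmepa1 (TMEPAI) is a membrane protein that binds receptor-activated SMADs and keeps them from the receptor, and that also binds ubiquitin ligases of the NEDD4 family. Skil and Pmepa1 are known as genes that TGF-beta itself induces, which closes a negative feedback loop.

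The start regions below show the letters at the listed starts of the members with few or no peaks. The stretch on the last line is from the 1 peak in the members' windows whose summit lies in bases that the RefSeq table holds. It is the longest such stretch of that peak. The peak overlaps start regions of Rer1 and Morn1, but of their listed starts only that of Rer1 lies under it. All are from RefSeq (GRCm38.p6, the assembly behind mm10), 5′ to 3′ on the strand given, from 250 bases before to 50 after a start. The table matched 3 of the 5 members by symbol, with 1 start for Ski, 5 for Tgif1 and 1 for Tgif2. Capitals mark GTCT or AGAC, the core of the SMAD-binding element on either strand, and GGCGCC, a GC-rich SMAD site.
Ski start, chr4:155222486-155222785, minus strand: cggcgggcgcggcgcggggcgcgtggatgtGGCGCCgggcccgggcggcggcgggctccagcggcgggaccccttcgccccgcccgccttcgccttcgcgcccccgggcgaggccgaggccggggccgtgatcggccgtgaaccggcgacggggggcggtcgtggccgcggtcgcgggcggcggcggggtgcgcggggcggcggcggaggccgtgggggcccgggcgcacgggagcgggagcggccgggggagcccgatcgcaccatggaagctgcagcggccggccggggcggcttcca
Tgif1 first start, chr17:70853483-70853782, minus strand: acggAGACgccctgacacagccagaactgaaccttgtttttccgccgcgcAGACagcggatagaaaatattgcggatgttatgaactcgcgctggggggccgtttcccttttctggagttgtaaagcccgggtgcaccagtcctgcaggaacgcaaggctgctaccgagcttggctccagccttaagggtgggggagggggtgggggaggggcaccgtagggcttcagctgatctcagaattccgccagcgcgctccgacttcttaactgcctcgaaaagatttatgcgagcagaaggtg
Tgif1 second start, chr17:70851685-70851984, minus strand: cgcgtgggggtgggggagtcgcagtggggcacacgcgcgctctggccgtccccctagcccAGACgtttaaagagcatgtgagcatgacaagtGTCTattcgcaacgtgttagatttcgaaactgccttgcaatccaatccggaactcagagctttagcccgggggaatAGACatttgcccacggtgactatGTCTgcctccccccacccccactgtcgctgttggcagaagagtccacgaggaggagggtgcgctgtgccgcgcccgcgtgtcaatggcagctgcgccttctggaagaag
Tgif2 start, chr2:156839757-156840056, plus strand: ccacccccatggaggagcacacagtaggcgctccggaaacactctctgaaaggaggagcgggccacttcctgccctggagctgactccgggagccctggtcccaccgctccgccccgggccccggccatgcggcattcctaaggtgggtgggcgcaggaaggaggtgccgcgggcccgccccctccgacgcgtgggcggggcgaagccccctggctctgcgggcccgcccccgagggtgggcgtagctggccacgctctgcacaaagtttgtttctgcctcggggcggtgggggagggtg
Part of the stimulated peak at the starts of Rer1 and Morn1 in the Ski window, chr4:155086304-155086470, minus strand: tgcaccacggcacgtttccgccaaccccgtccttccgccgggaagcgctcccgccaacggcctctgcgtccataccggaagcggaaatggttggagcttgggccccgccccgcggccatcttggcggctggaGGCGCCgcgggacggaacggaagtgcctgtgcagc

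None of the 7 listed member starts, 5 of them from Tgif1, overlapped a peak of either list. Skil and Pmepa1 had no listed start, so this count says nothing of them. Of all 32851 listed start windows, 731 (2.23%) overlapped a stimulated peak and 140 (0.426%) an unstimulated one. The Ski start was 85.3% G and C (median of all windows 52.7%), held 1 GGCGCC, which 11.9% of all windows hold, and no GTCT or AGAC, which 88.0% hold. The Tgif2 start, at 72.3% G and C, held neither. The first and second Tgif1 starts held 2 and 4 matches to GTCT or AGAC and no GGCGCC, and the other 3, in listed order, held 0, 3 and 4 and likewise no GGCGCC (median of all windows 2 matches to GTCT or AGAC). GTCTAGAC, the palindrome of the element, was in none of the 7 member windows and in 0.213% of all windows. Both strands were read, and matches that overlap were counted separately. CAGACA or TGTCTG, which contains the core, had 1 match in each of the first and second Tgif1 starts, none in the other 5 member windows, and is in 21.0% of all windows. GGAGCC or GGCTCC had 2 matches in the Ski start and 1 each in the Tgif2 start and the first Tgif1 start, none in the other 4 windows, and is in 30.8% of all windows. The core of the TGIF homeodomain site, TGTCA or TGACA, was absent from the Ski and Tgif2 starts, had 1, 2, 1, 0 and 3 matches in the 5 Tgif1 starts in listed order, and is in 45.4% of all windows. These are matches of letters in a window and no more than that.

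Peaks were unevenly spread over the members. Pmepa1 was nearest to 4 stimulated and 5 unstimulated peaks, Skil to 2 and 3, Ski to 2 and 1, Tgif1 to 1 and 0, and Tgif2 to none in either list. Of the 5 members, 4 were therefore nearest to a stimulated peak within 100 kb, against 12.2% of all protein-coding genes, and 3 were nearest to an unstimulated one, against 3.79%. With the stimulated list shortened to the 1133 peaks of the unstimulated one, 2 members (Skil and Pmepa1) had a stimulated peak, against 3 with an unstimulated one. The share of all genes was not computed for the shortened list, so these 2 members have no share to be set against. At least 1 summit lay inside or within 100 kb of 4 members in each list, against 36.5% of all genes in the stimulated and 13.1% in the unstimulated list. Ski, Skil and Pmepa1 were nearest to a peak in both lists, as were 3.71% of all genes. At least 2 stimulated peaks, as at Ski and Skil, were found at 3.45% of genes and at least 4, as at Pmepa1, at 0.544%. At least 3 unstimulated peaks, as at Skil, were found at 0.146% and at least 5, as at Pmepa1, at 0.0228%. These shares were not matched on gene length or open chromatin, and the members were chosen with earlier results known, so the counts set the members apart from no other genes.

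**Figure D1:**
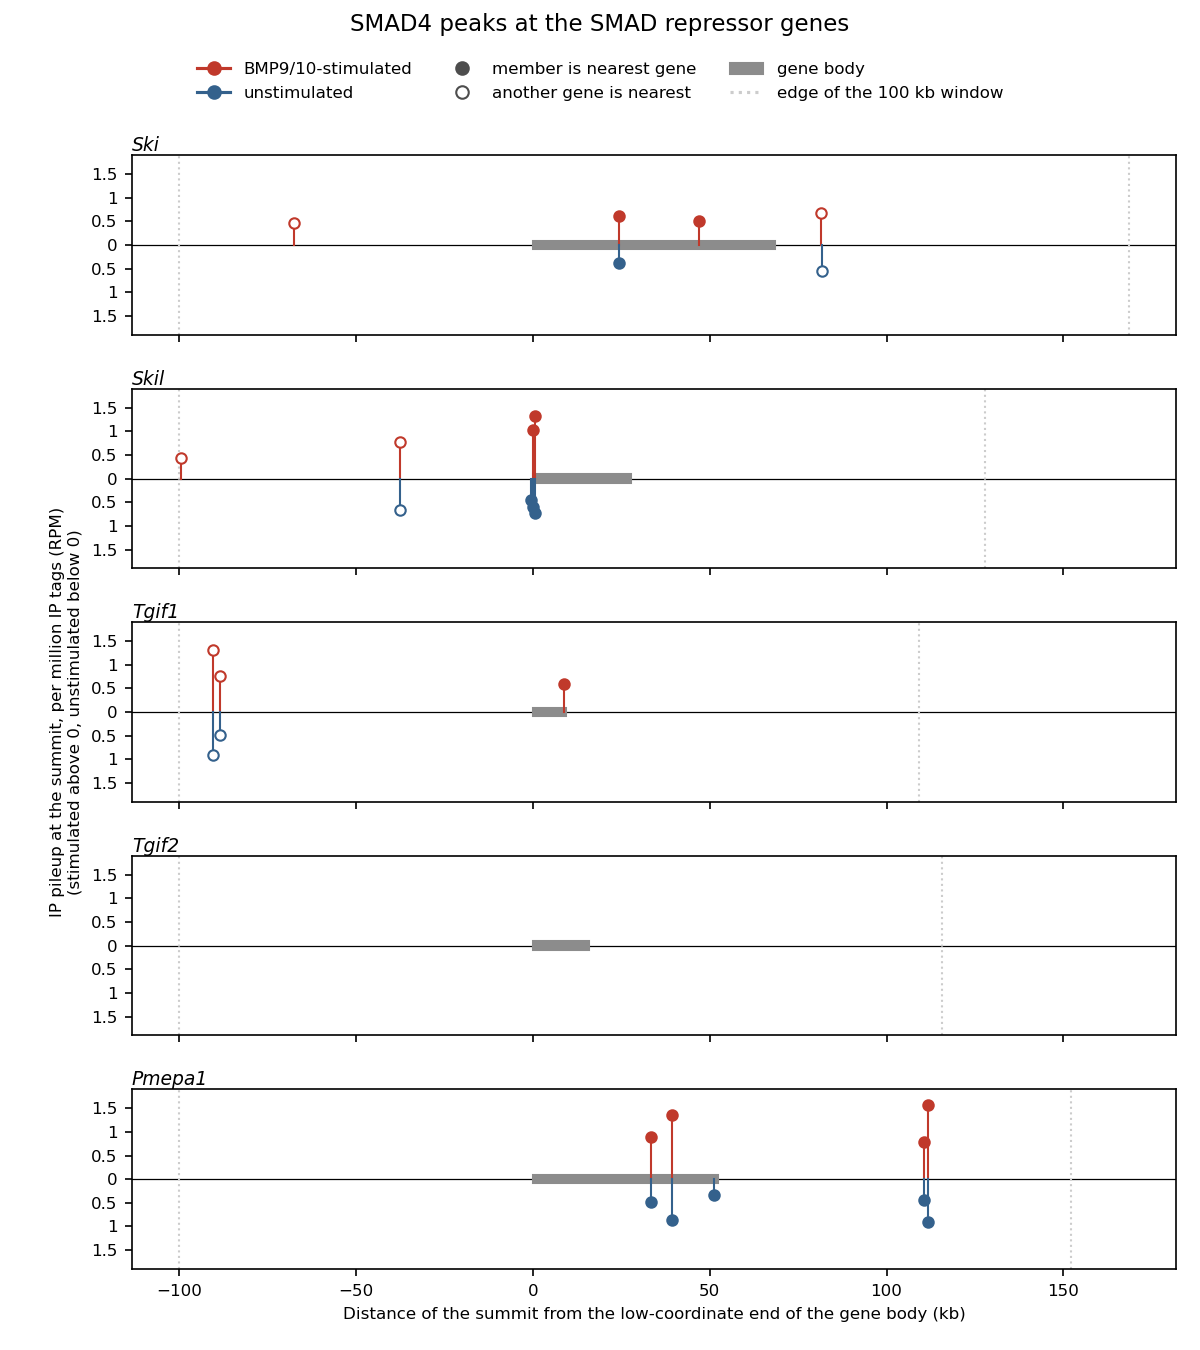
SMAD4 summits around each of the 5 genes. The x axis is the distance of the summit from the low-coordinate end of the gene body in kb, the y axis the pileup of IP tags at the summit per 1000000 IP tags (RPM), upward for stimulated and downward for unstimulated cells. Filled points mark peaks whose nearest protein-coding gene is the member. Skil has its peaks at one end of the gene body, Pmepa1 has them inside the gene body and 58.3 and 59.4 kb beyond it, and Tgif2 has none.

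Skil (gene ID 20482, chromosome 3, 31095058 to 31122923) carried the members' peak of highest fold enrichment, the authors' ratio of IP pileup to local background with 1 added to each, in both lists. In stimulated cells a peak at 31095345 to 31095996 had its summit 509 bp inside the low-coordinate end of the gene body and a second, at 31094570 to 31095187, had it 24 bp outside that end. The inner peak stood on 54 IP tags (1.32 RPM, the pileup of extended IP tags at the summit per 1000000 filtered IP tags of that condition), and its fold enrichment of 13.7 ranked 19th of 4333. The outer one stood on 42 tags (1.02 RPM), with a fold enrichment of 12.3 that ranked 30th. They were also wide, at 652 and 618 bp, against a median of 207 bp over the stimulated list. Stimulated peaks that overlapped an unstimulated one, as both of these did, had a median of 320 bp.

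The same stretch at the end of Skil was covered by 3 unstimulated peaks. The one inside the gene body (31095465 to 31095889) had 0.736 RPM, a fold enrichment of 8.0 and a width of 425 bp. The one across the end (31094953 to 31095175) had 0.604 RPM, 7.57 and 223 bp, and the outermost (31094577 to 31094681) had 0.453 RPM, 5.91 and 105 bp. The inner peak and the one across the end ranked 24th and 40th of 1133 by fold enrichment. Both outer unstimulated peaks overlapped the single outer stimulated peak, so the lower number of stimulated peaks here does not mean less covered sequence. Summits of matching peaks lay 13 and 8 bp apart, and successive stimulated summits were 533 bp apart, against 528 bp between the matching unstimulated ones. The strongest other peak in the Skil window lay 37.6 kb from Skil and was nearest to Prkci, an atypical protein kinase C gene, with 0.780 RPM in stimulated and 0.661 RPM in unstimulated cells.

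Ski (gene ID 20481, chromosome 4, 155154075 to 155222535) had weaker peaks, all deep inside the gene body and far from its listed start. In stimulated cells 25 tags (0.609 RPM, fold enrichment 4.33) lay over a summit 44.2 kb downstream of the start (155178313 to 155178563), and 21 tags (0.512 RPM, 5.0) over one 21.6 kb downstream (155200879 to 155201075). In unstimulated cells 20 tags (0.378 RPM, 3.50) lay at the first of these sites (155178407 to 155178550), 44.1 kb downstream, and no peak was called at the second. The 2 stimulated peaks ranked 2419th and 1589th of 4333 by fold enrichment and the unstimulated peak 757th of 1133.

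The other peaks in the Ski window belonged to neighbours by distance. The strongest of these by stimulated pileup lay 13.0 kb upstream of the Ski start and was nearest to Faap20, a gene of DNA crosslink repair, 11.4 kb away. It had 0.682 RPM and a width of 652 bp in stimulated cells, and 0.547 RPM and 108 bp in unstimulated cells, with summits 372 bp apart. A peak of 0.463 RPM lay in stimulated cells over the listed start of Rer1, 67.7 kb from Ski, and had no unstimulated counterpart. It overlapped start windows of Morn1 without reaching a listed Morn1 start. The 167 bases of this peak printed above, of its 186, held 1 GGCGCC and no GTCT or AGAC.

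Tgif1 (gene ID 21815, chromosome 17, 70844205 to 70853532) was nearest to a peak in stimulated cells only. This peak (70852710 to 70853015, 306 bp) lay inside the gene body between the first and second listed starts, with its summit 642 bp downstream of the first and 1156 bp upstream of the second. It stood on 24 tags, 0.585 RPM, with a fold enrichment of 4.17 that ranked 2629th of 4333. It overlapped neither start window printed above, from which 467 and 725 bases separate it. Of all protein-coding genes 8.54% likewise had a nearest peak within 100 kb in the stimulated list alone.

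Tgif1 was not the nearest gene of the remaining peaks in its window, which lay 88.5 and 90.4 kb away inside Dlgap1, a gene for a scaffold protein of the synapse. The stronger of them had 1.32 RPM in stimulated and 0.906 in unstimulated cells, and the weaker 0.755 and 0.491. More Dlgap1 summits lay just outside the window, 105 kb from Tgif1 in the stimulated and 107 kb in the unstimulated list.

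Tgif2 (gene ID 228839, chromosome 2, 156839817 to 156855570) had no summit of either list inside or within 100 kb of its gene body, as was the case for 63.3% of protein-coding genes. The nearest stimulated summit lay 156 kb away, with Soga1 the nearest gene, and the nearest unstimulated one 527 kb away. The weakest peak of each list stood on 11 tags (0.268 RPM) in stimulated and 14 (0.264 RPM) in unstimulated cells, and binding weaker than the authors' threshold at Tgif2 was not detectable from lists of called peaks.

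Pmepa1 (gene ID 65112, chromosome 2, 173224458 to 173276731) had its peaks in 2 separate places. Inside the gene body, stimulated peaks at 173257687 to 173257928 and 173263582 to 173263983 had 0.901 and 1.36 RPM. The matching unstimulated peaks had 0.491 and 0.868. Beyond the high-coordinate end of the gene body, summits 58.3 and 59.4 kb away (173334866 to 173335197 and 173335970 to 173336310) had 0.780 and 1.56 RPM in stimulated cells, and 0.434 and 0.906 in unstimulated cells. The peak 59.4 kb away was the strongest of all member peaks by pileup in stimulated cells (64 tags), and its fold enrichment of 13.3 ranked 21st of 4333. This distal pair was 1.09 kb apart from summit to summit in stimulated and 1.06 kb in unstimulated cells, so both lists place 2 summits at the same spacing there.

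One Pmepa1 peak was called in unstimulated cells only. It lay inside the gene body, 1.20 kb from the high-coordinate end (173275450 to 173275602), and stood on 18 tags, or 0.340 RPM, with a fold enrichment of 4.96. Of the 1130 unstimulated peaks outside mitochondrial DNA, 45 (3.98%) overlapped no stimulated peak. Such peaks, with mitochondrial DNA counted, had a median of 0.547 and a lower quartile of 0.434 RPM, so this one was among the weaker of them, and its level in stimulated cells is not known from the lists. Peaks nearest to Pmepa1 also lay just outside the window and were not counted. One, at 104 kb, was the nearest outside in the stimulated list (0.755 RPM). Another, at 106 kb, was called in both lists, with 1.39 RPM in stimulated and 0.774 RPM in unstimulated cells.

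The next comparison asked which sites were called in both conditions. Of the 15 stimulated peaks in the members' windows, 11 overlapped an unstimulated peak by at least 1 bp, against 25% of all stimulated peaks outside mitochondrial DNA. Of the 13 unstimulated peaks, 12 overlapped a stimulated one, against 96% of all. The stimulated peaks without a counterpart were the second Ski peak, the Tgif1 peak, the Rer1 and Morn1 peak and a peak of 0.439 RPM 0.244 kb from Prkci, at 99.6 kb from Skil. Their pileups, from 0.439 to 0.585 RPM, were below the median of 0.633 over all stimulated peaks without a counterpart.

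Matching peaks were paired once each by the closest summits, which gave 1078 pairs outside mitochondrial DNA, 11 of them in the members' windows. The stimulated pileup in RPM was higher at all 7 pairs nearest to a member, as at 1061 of all 1078 pairs (98.4%). The counting interval (95%, exact binomial on the 2 pileups, covering counting error within the pooled libraries only) lay above 1 at 6 of these 7, against 36.6% of all pairs. The ratios, stimulated over unstimulated, were 1.79 (1.16 to 2.77) inside Skil and 1.69 (1.04 to 2.77) across its end. At Pmepa1 they were 1.84 (1.08 to 3.16) and 1.57 (1.04 to 2.37) inside the gene body, and 1.80 (1.02 to 3.21) and 1.72 (1.17 to 2.56) at the distal pair. The Ski site had 1.61 (0.860 to 3.06), which includes 1.

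These ratios differed little from each other, with every interval holding every other ratio. Their median was 1.72, against 1.47 (interquartile range 1.29 to 1.68) over all 1078 pairs, and 9.93% of pairs had a larger ratio than the largest of them. Relative to the median of all pairs the 7 ratios became 1.07 to 1.25, and then none of the 7 intervals lay above 1. The 4 pairs whose nearest gene was a neighbour had 1.18 at Prkci, 1.25 at Faap20 and 1.45 and 1.54 in Dlgap1, and their intervals all included 1. The 7 and 4 pairs share windows and libraries, and the difference between them was not tested.

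**Figure D2:**
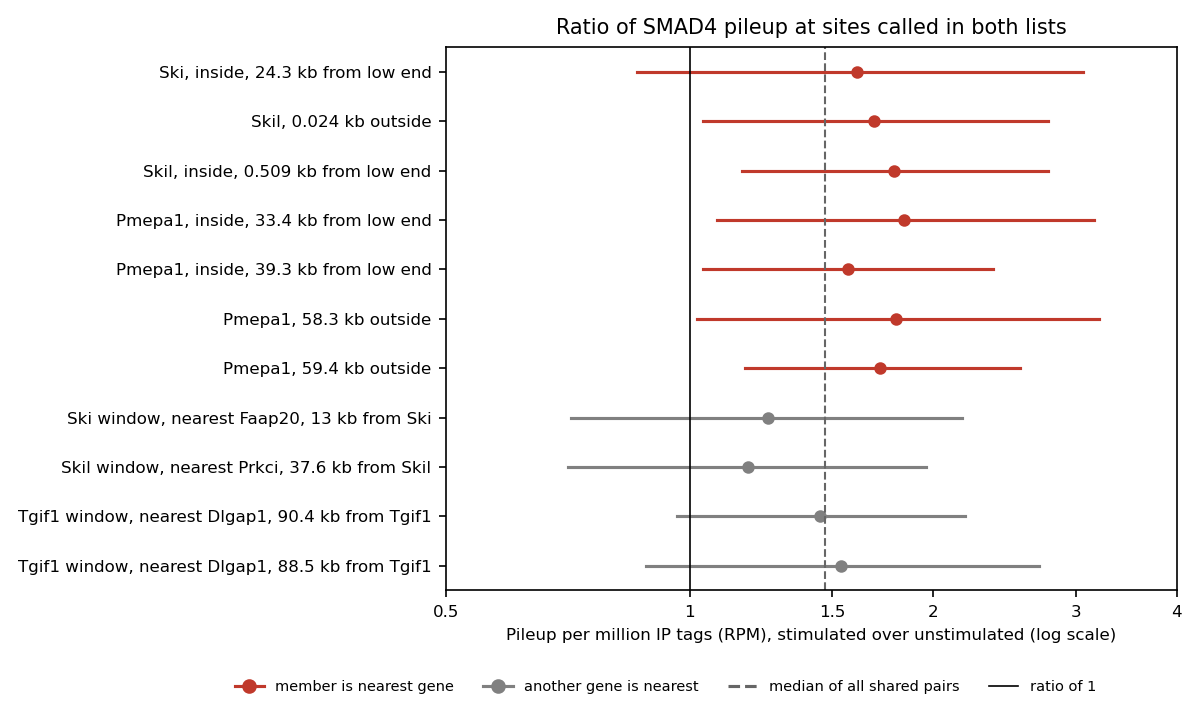
Ratio of pileup in RPM, stimulated over unstimulated (x axis, log scale), at the 11 shared sites in the members' windows. Points are ratios, bars are 95% counting intervals, the solid line marks 1 and the dashed line the median of all 1078 shared pairs, 1.47. The 7 sites nearest to a member lie to the right of the dashed line, and the bars of all 7 cross it.

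**Figure D3:**
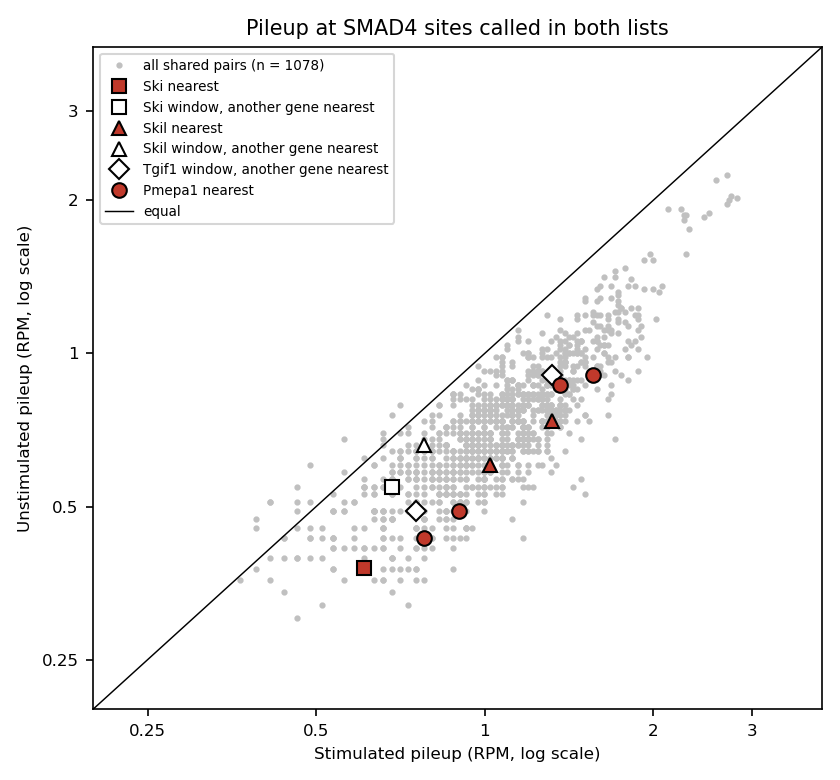
Pileup in RPM at the 1078 shared pairs, stimulated on the x axis and unstimulated on the y axis, both on log scales, with the line of equal values. The 11 sites in the members' windows lie below the line, inside the cloud of all pairs.

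Fold enrichment over input gave another picture inside Pmepa1 than pileup did. At Skil both measures were higher in stimulated cells (13.7 against 8.0, and 12.3 against 7.57), and so they were at the distal Pmepa1 pair (13.3 against 7.0, and 8.25 against 4.71) and at Ski (4.33 against 3.50). Inside Pmepa1, however, the stimulated fold enrichments of 4.75 and 5.43 stood below the unstimulated 7.01 and 5.62. Fold enrichment was thus higher in stimulated cells at 5 of the 7 sites, against 82.4% of all pairs. The local background recovered from the deposited values was 0.268 RPM in stimulated and 0.108 in unstimulated cells at the first of these sites, and 0.146 and 0.0717 at the second. These are ratios of 2.49 and 2.04, against a median of 1.0 (interquartile range 0.821 to 1.29) over all pairs. The Skil background ratios were 0.968 and 0.960, those of the distal Pmepa1 pair 0.839 and 0.944, and that of the Ski site 1.29. Fold enrichment was also lower in stimulated cells at 2 of the 4 pairs nearest to a neighbour. These were the stronger Dlgap1 site (3.93 against 4.90, background ratio 1.86) and the Faap20 site (4.14 against 4.76, background ratio 1.46). With the background subtracted from the pileup, the ratios inside Pmepa1 were 1.44 and 1.80. This background is computed from the pileup and the fold enrichment, so it restates the difference between these measures and is not independent of them. Why it differed between the conditions was not tested.

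Stimulated peaks were wider at 6 of the 7 pairs nearest to a member, and at 92.0% of all pairs. The median ratio of widths was 1.53 for these 7 and 1.58 for all pairs. The Skil peaks measured 652 and 618 bp in stimulated cells, against 425 and 223 bp in unstimulated cells. The exception was the Pmepa1 site at 173257687, with 242 bp in stimulated and 471 bp in unstimulated cells. Summits of the 7 pairs lay 4 to 80 bp apart (median 29 bp, and 31 bp over all pairs). The band width setting of the peak caller differed between the lists (200 for stimulated and 300 for unstimulated), and its part in the widths was not tested.

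**Figure D4:**
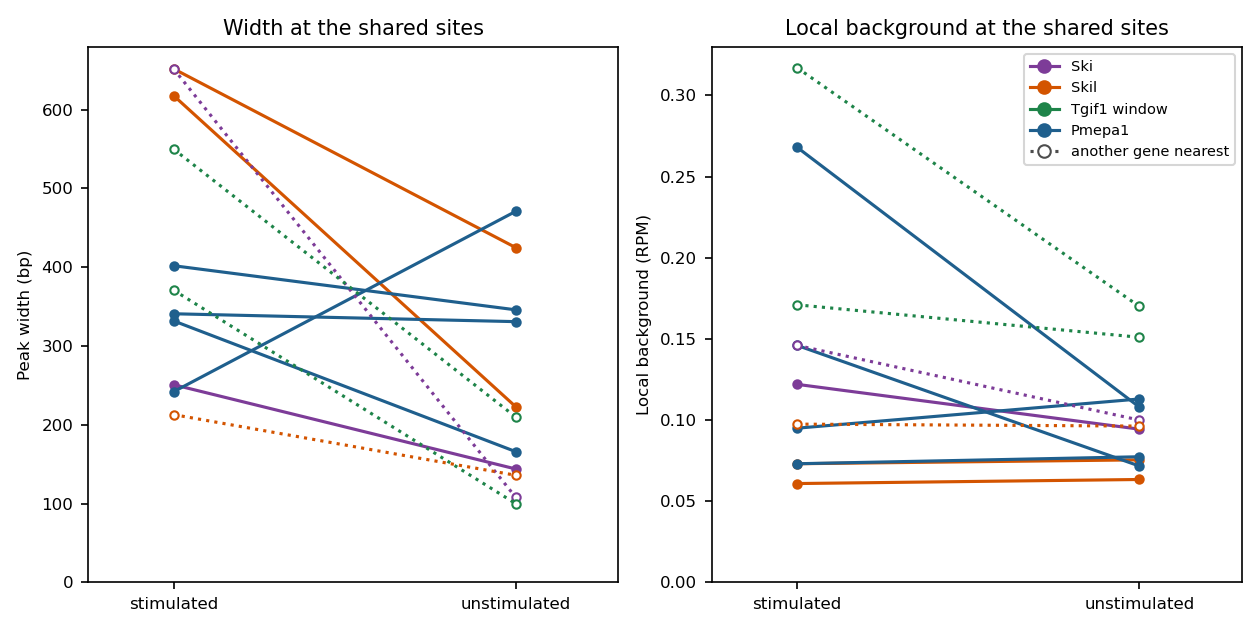
Peak width in bp (left) and recovered local background in RPM (right) at the 11 shared sites, with the stimulated value on the left of each panel joined to its unstimulated value. Solid lines are sites nearest to a member. One Pmepa1 site, at 242 against 471 bp, is narrower in stimulated cells, and the background at both sites inside Pmepa1 is higher in stimulated cells (0.268 against 0.108 RPM and 0.146 against 0.0717 RPM).

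Other regulators of SMAD signalling and corepressors were looked at as a list of 25 genes, all found in the gene table. Of these, 10 (40.0%) were nearest to a stimulated peak within 100 kb and 5 (20.0%) to an unstimulated one, against the 12.2% and 3.79% of all genes given above. At equal list lengths of 1133 peaks, 4 genes of the list had a stimulated peak, against 5 with an unstimulated one. Here too the share of all genes was not computed for the shortened stimulated list. The list was chosen with earlier results of these data known. Those with peaks in both lists were the inhibitory SMADs Smad6 (7 stimulated and 5 unstimulated peaks) and Smad7 (7 and 2), Ldlrad4 (3 and 2), Fkbp1a (3 and 1) and Zeb1 (1 and 1). Ldlrad4 encodes a relative of the Pmepa1 protein with the same kind of SMAD-binding motif, and its strongest peak, inside the gene body, had 1.51 RPM and a fold enrichment of 12.6 in stimulated cells, against 0.868 and 10.7 in unstimulated cells. At Fkbp1a, whose immunophilin product binds type I receptors, a peak beside the gene body had 1.88 RPM in stimulated and 1.23 in unstimulated cells. The zinc finger repressor gene Zeb1 had 0.926 RPM about 45.1 kb away in stimulated cells and 0.434 RPM about 44.9 kb away in unstimulated cells.

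Genes of the list nearest to stimulated peaks alone within 100 kb included Smurf1, Ppm1a, Mecom and Zeb2 (1 peak each). Smurf1 encodes a ubiquitin ligase that acts on SMADs and receptors, and Ppm1a a SMAD phosphatase. Their stimulated peaks had 1.32 and 0.780 RPM, and Mecom and Zeb2 had 0.341 and 0.487. The corepressor and deacetylase genes Ncor1, Sin3a, Hdac1, Hdac2, Ctbp1 and Ctbp2 were nearest to no peak of either list within 100 kb. The same held for Rnf111, whose product is the ubiquitin ligase that degrades the Ski and Skil proteins. It also held for Smurf2, Nedd4l, Bambi, Tob1, Dach1, Strap, Xpo4 and Bcl6.

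Genes most like each member were sought among 808 other genes with nearest peaks in both lists, by the number of peaks and the strongest pileup in RPM in each of the 2 conditions (Euclidean distance of log2 values). For Pmepa1 these were Myct1 (distance 0.349, 4 stimulated and 4 unstimulated peaks), Snai1 (0.586, 4 and 3) and Odc1 (0.598, 4 and 3). Skil was closest to Nceh1 (0.418), Ino80c (0.422) and Gm4832 (0.425), each with 2 peaks in each list. The nearest to Ski were Usp43 (0.138), Ccbe1 (0.139) and Ndfip2 (0.183), each with 2 stimulated peaks and 1 unstimulated peak. The distance rests on 2 pooled conditions and describes peak lists only.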

How the data were processed

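SMAD4 ChIP-seq peaks were analysed as the authors deposited them, 1 list per condition. Per the file headers, peaks were called with MACS2 2.1.0.20140616 on 2 merged IP against 2 merged input libraries, with at most 1 tag per position, tags extended to 100 bp, the larger set sampled down to the smaller and a q-value cutoff of 0.01. The build, mm10, and the use of MACS2 and HOMER come from the submitters' processing notes, and no source used here gives an aligner. Input tags numbered 59057559 (stimulated) and 72688953 (unstimulated), per the file headers. The pileup is a coverage signal of extended IP tags that the authors deposited without scaling, and it was divided here by the filtered IP tags and given per 1000000 (RPM). The fold enrichment is a ratio and the −log10 p- and q-values are the authors' own, as deposited, and both describe and filter peaks. Local background was recovered as (pileup + 1) divided by fold enrichment, minus 1, and a Poisson tail on it came within 1% of the deposited −log10 p for all 4333 and all 1133 peaks.

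Gene bodies came from the RefSeq table of GRCm38.p6, which has no strand; starts and strands came from its promoter table. Nearest genes were found from the summit, ties kept. Positions are 1-based. No test between conditions was possible on pooled values, and the intervals cover counting error only. All peaks for which a member was nearest are named, and of other peaks in a window the strongest by stimulated pileup, with the rest given by counts or values; the peaks at Rer1, Morn1 and Prkci were named after their values were seen. The members and lists were chosen with earlier results of these data known. One gene counted in the list of other regulators is not reported here by name. Code was tested on simulated data. Python 3.11.15, scipy 1.17.1 and pandas 2.3.3 were used. Alternatives were a −log10 q minimum of 10, a shortened stimulated list, a 50 kb window, curated genes, peak middles, other overlap rules and other scales of the ratio. Peak sequences away from listed starts were not used here.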

Additional observations from a re-analysis of the deposited data

How the results depend on the processing

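Of 45 alternative values for the counts, 32 stayed within 1.5 times the reported one. With a −log10 q of at least 10 (1551 stimulated and 371 unstimulated peaks), which removes weaker peaks by construction, the members' windows held 8 stimulated and 6 unstimulated peaks. Members were then nearest to 6 stimulated and 4 unstimulated peaks, all at Skil and Pmepa1, so 2 members had a stimulated peak. In the windows 6 stimulated and 6 unstimulated peaks were shared, and 4 genes of the list of other regulators had a stimulated peak. Shares over all genes and all peaks were not computed at this cut, so its counts have no background beside them. With the stimulated list shortened to 1133 peaks the windows held 8 stimulated peaks against 13 unstimulated. Then 2 members (Skil and Pmepa1) had a stimulated peak against 3 with an unstimulated one, and 4 genes of the other list against 5. The order of the lists turned for these 3 counts. Whether it turned likewise over all genes was not computed. A 50 kb window held 9 stimulated peaks, of which 7 were shared, against 25% of all stimulated peaks outside mitochondrial DNA. This window removes the distal Pmepa1 pair from the counts by construction. Divided by the median ratio of all shared pairs, 0 of the 7 sites nearest to a member kept an interval above 1. By fold enrichment the ratio was 0.965 and 0.677 at the sites inside Pmepa1, below 1, where the local background was higher in stimulated cells; it stayed above 1 at the other 5 sites nearest to a member, and was above 1 at 82.4% of all pairs. Curated genes and peak middles, run for peaks nearest to a member and members with one, left those counts as they were. Summits within 100 bp and overlap of at least 50% of the shorter peak, run for shared peaks, left those counts within 1.5 times. No paired analysis was possible because the authors merged the libraries of each condition before calling peaks, and for the same reason no library could be left out. At 18 to 64 tags a peak, counting error alone spans most differences between sites.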

Other observations

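The assignment of peaks used protein-coding genes, and noncoding genes lay nearer to some of these sites. The distal Pmepa1 pair, 58.3 and 59.4 kb from the gene body, was 11.8 and 10.7 kb from Gm36911, a long noncoding RNA gene, in both lists. The peak nearest to Faap20 upstream of Ski lay inside the noncoding gene Gm52713 in both lists. The peak nearest to Prkci, 37.6 kb from Skil, was 2.06 kb from the noncoding gene Gm33641 in the stimulated and 2.07 kb in the unstimulated list. The Skil peaks, those inside Pmepa1 and Ski, and the Tgif1 peak had the member as nearest gene of any kind.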
